A study of Mus musculus with 2 samples.

Results

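The microRNA (miRNA) genes Mir375, Mir192, Mir194-1, Mir194-2, Mir215, Mir122, Mir216a, Mir216b and Mir217, best known from gut, liver and pancreas, were measured in mouse limb tissue. They were chosen by symbol, through the Ensembl identifiers of the count tables, by a rule that uses no count, though earlier results of these data were known. All 9 were found among the 1973 miRNA genes of the tables. The samples were limbs of B6NCrl embryos at embryonic day 10.5, with males and females pooled and no mutant allele or treatment named in the labels. There was 1 group of 2 libraries, which the labels call biological replicates. Replicate 1 came from a pool of 69 embryos and replicate 2 from a pool of 51. Both pools carry the same donor record, and animals were not measured singly.

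A miRNA gene is transcribed into a hairpin, and a short mature RNA is cut from either arm of it. The mature RNA pairs with messenger RNAs mainly through its seed (bases 2 to 8) and lowers their translation or stability. The 9 genes are known for narrow patterns in the adult digestive organs. Mir375 is abundant in the endocrine cells of the pancreas and is also known from the pituitary. Mir192, Mir194-1, Mir194-2 and Mir215 are known from gut epithelium and kidney, Mir122 is the main miRNA of hepatocytes, and Mir216a, Mir216b and Mir217 are known from the acinar pancreas.

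The sequences below show which mature RNAs of these loci share a seed or a whole sequence, which bears on what uniquely placed reads can count. They were taken from RefSeq (build GRCm38.p6), where hairpins were found for all 8 members looked up, each at its GENCODE coordinates. Seeds are in capitals, and sequences run 5′ to 3′. Mir192 (chr19:6264844-6264932, plus strand) and Mir194-2 (chr19:6264643-6264728, plus strand) lie 115 bases apart and overlap no other annotated gene. Mir194-1 (chr1:185313319-185313385) and Mir215 (chr1:185313581-185313692) lie 195 bases apart on the plus strand, inside an intron of Iars2 on the opposite strand. Mir194-1 lies in an intron and Mir215 in an exon of the noncoding gene 2010103J01Rik.
miR-192-5p (Mir192): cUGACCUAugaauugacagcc
miR-215-5p (Mir215): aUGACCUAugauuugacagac
miR-194-5p (Mir194-1 and Mir194-2): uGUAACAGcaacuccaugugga
miR-194-1-3p (Mir194-1): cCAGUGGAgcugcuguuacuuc
miR-194-2-3p (Mir194-2): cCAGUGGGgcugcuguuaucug

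The 5p RNAs of Mir192 and Mir215 have the same seed, which no other mature RNA of the table carries. They are equal at 18 of 21 positions and differ by C1A, A12U and C20A (counted from the 5′ end, the miR-192-5p base first). The 5p RNA of Mir194-1 and Mir194-2 is one sequence encoded at both loci. Their 3p RNAs are equal at 18 of 22 positions, with A8G, C19U, U20C and C22G (the miR-194-1-3p base first), and so differ in the last base of the seed. Of the 14 mature names in the table for the loci looked up, miR-194-5p was found in 2 hairpins of the table and the other 13 in 1 each. The tables list multimapping reads in a row apart from the genes, and how they were treated is not stated in the sources used here. If they were counted at no gene, reads of miR-194-5p that fit both loci are missing, the counts of Mir194-1 and Mir194-2 are too low, and their split covers uniquely placed reads alone.

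The pancreatic genes lie on chromosome 11 on the plus strand: Mir216b (chr11:28746191-28746276), then Mir216a (chr11:28757012-28757083) after 10735 bases, then Mir217 (chr11:28763728-28763835) after another 6644. Mir216a and Mir217 lie in an intron of the noncoding gene Gm12082. The hairpin of Mir216c is annotated on the opposite strand at Mir216b, and no antisense count was found there. Mir375 (chr1:74900658-74900721, minus strand) overlaps no other annotated gene. Its hairpin is shown with the 5p RNA in capitals (bases 5 to 26), and the others with the seed in capitals. The arm for which this gene is best known, miR-375-3p, is not marked, as the sequences used here hold no entry for it.
Mir375 hairpin: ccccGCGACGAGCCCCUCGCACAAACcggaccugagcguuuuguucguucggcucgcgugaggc
miR-216a-5p (Mir216a): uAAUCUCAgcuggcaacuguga
miR-216b-5p (Mir216b): aAAUCUCUgcaggcaaauguga
miR-217-5p (Mir217): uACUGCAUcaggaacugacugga
The 5p RNAs of Mir216a and Mir216b share bases 2 to 7 and differ by U1A, A8U, U11A and C17A (the miR-216a-5p base first), so their seeds part at the last base. A count per hairpin does not say which arm gave the reads.

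The libraries had nearly the same depth in miRNA genes, with 3581672 sense counts in replicate 1 and 3576482 in replicate 2. Levels are given as counts per 1000000 such counts (CPM), with no correction for length, since the mature RNAs printed above are 21 to 23 bases long. Detection here means 10 or more sense counts in each library. All 8 genes of a mesenchyme list and all 5 of a list of genes in the Hox clusters were detected, where 17.6% of all 1973 genes were. All 7 genes of an epithelial list and all 3 of a heart list were detected too, so full detection does not identify a tissue. With 2 libraries of 1 group no exact test across samples can pass 0.05, as sign flips reach a two-sided p of 0.5 at best. Differences are therefore described with intervals and without p-values. Intervals are 95% exact binomial, treat reads as independent and leave out variation between pools. PCR copies of a read are not independent molecules, so the intervals may be too narrow even for counting error. In these bulk samples, few cells with much of a miRNA and many cells with little cannot be told apart.

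Mir375 stood far above the other 8 genes, the gut genes of chromosome 19 followed at a low level, Mir122 and Mir217 had fewer than 100 counts in each library, and the other 4 had almost none. Of the 9 genes, 5 were detected (Mir375, Mir192, Mir194-2, Mir122 and Mir217), where 17.6% of all 1973 genes were. The other 4 (Mir215, Mir216b, Mir194-1 and Mir216a) had at most 5 counts in any library. Summed over all 9, the level was 1234 CPM in replicate 1 and 1061 CPM in replicate 2. Mir375 made up 89.4% of that sum in replicate 1 (88.5 to 90.3) and 90.8% in replicate 2 (89.8 to 91.7). These shares are too high if reads of miR-194-5p that fit both of its loci are missing.

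**Figure D1:**
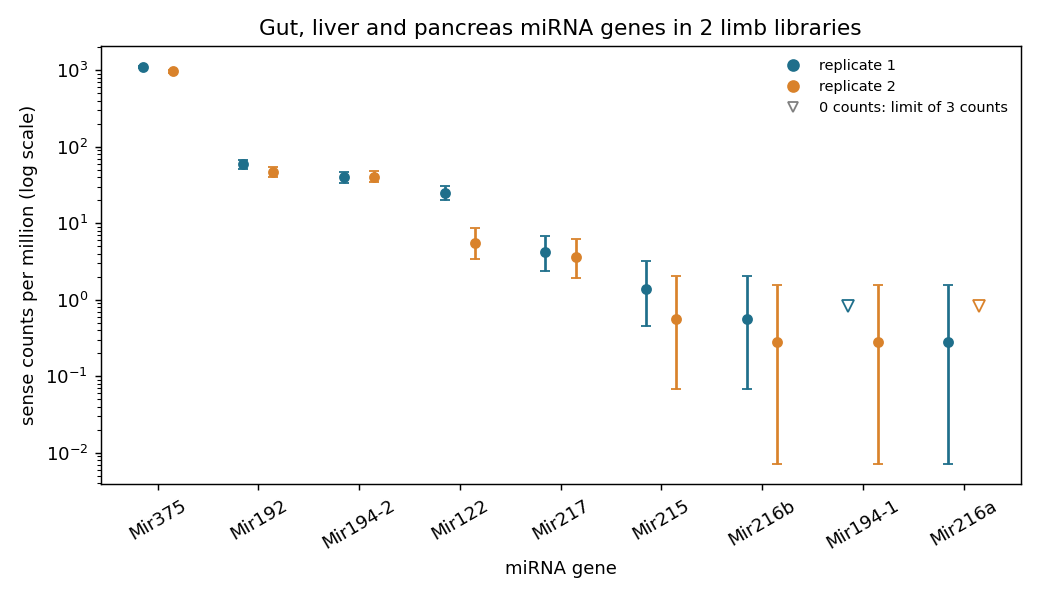
Sense counts in CPM (log axis) of the 9 genes in each of the 2 libraries, ordered by mean level. Points are single libraries, bars are 95% exact binomial intervals, and open triangles mark the limit of 3 counts where a library had 0. Mir375 lies near 1000 CPM in both libraries, Mir192 and Mir194-2 between 39.9 and 59.2 CPM, and Mir122 is the gene whose libraries are furthest apart among the 5 detected.

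Mir375 had 3952 counts in replicate 1 and 3444 in replicate 2, which is 1103 CPM (1069 to 1138) and 963 CPM (931 to 996). In CPM its intervals did not overlap, and replicate 1 was higher by 1.15-fold (1.09 to 1.20). That direction depended on the scaling: the log2 ratio (replicate 2 minus replicate 1) was -0.20 in CPM, and 0.0931 with edgeR's TMM factors, 0.0797 with DESeq2 size factors and 0.0165 per mapped read. It held rank 92 of 1973 genes in replicate 1 and rank 90 in replicate 2, and its mean of 1033 ± 99.3 CPM (SD, n = 2) was 7.58-fold the median of the 348 detected genes (136 CPM). No antisense read was counted at its locus. The genes most like it, by Euclidean distance of log2(CPM + 1) over the 2 libraries, were Mir341 (distance 0.085), Mir139 (0.10), Mir467c (0.12), Mir34c (0.13) and Mir134 (0.18). Distances over 2 libraries describe the level and little else.

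The gut and kidney genes were carried by the Mir194-2 and Mir192 pair of chromosome 19. Mir192 had 212 counts in replicate 1 and 168 in replicate 2, or 59.2 CPM (51.5 to 67.7) and 47.0 CPM (40.1 to 54.6), so the intervals overlapped, with a mean of 53.1 ± 8.64 CPM (SD, n = 2). Mir194-2 had 143 and 145 counts, or 39.9 CPM (33.7 to 47.0) and 40.5 CPM (34.2 to 47.7), with overlapping intervals. Its log2 ratio (replicate 2 minus replicate 1) was 0.02 in CPM and 0.31 with TMM factors. Mir192 exceeded Mir194-2 by 1.48-fold in replicate 1 (1.19 to 1.85), and in replicate 2 the ratio of 1.16 had an interval that includes 1 (0.922 to 1.46). By counting error alone, the order of these neighbours was settled in 1 of the 2 libraries. Reads of miR-194-5p that fit both of its loci may be missing from the Mir194-2 count, so the order was not settled beyond uniquely placed reads.

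Their paralogues on chromosome 1 had counts close to 0. Mir215 had 5 counts in replicate 1 and 2 in replicate 2, or 1.40 CPM (0.453 to 3.26) and 0.559 CPM (0.0677 to 2.02). Mir194-1 had 0 counts in replicate 1, where the limit of 3 counts is 0.838 CPM and the exact interval reaches 1.03 CPM, and 1 count in replicate 2. It was the only one of the 9 genes with antisense reads, 2 of them in replicate 1. The pair on chromosome 19 had 71.0-fold the counts of the pair on chromosome 1 in replicate 1 (30.1 to 220) and 104-fold in replicate 2 (35.4 to 509). Reads of miR-194-5p that fit both of its loci may be missing from both pairs. The low count of Mir194-1 and the ratio of the pairs therefore cover uniquely placed reads alone. For Mir192 against Mir215, whose mature RNAs are told apart by the bases named above, the ratio was 42.4 (17.9 to 132) and 84.0 (22.9 to 699). The genes most like Mir192 by the same distance were Mir211 (0.11), Mir31 (0.17), Mir128-1 (0.19), Mir33 (0.30) and Mir3072 (0.31).

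The acinar pancreas genes were counted in a few reads only, nearly all of them at Mir217. Mir217 had 15 counts in replicate 1 and 13 in replicate 2, or 4.19 CPM (2.34 to 6.91) and 3.63 CPM (1.94 to 6.22), and so passed the detection limit narrowly in both. Its mean was 3.91 ± 0.391 CPM (SD, n = 2). Mir216b had 2 counts and 1 count. Mir216a had 1 count in replicate 1 and 0 in replicate 2, where the limit of 3 counts is 0.839 CPM and the exact interval reaches 1.03 CPM. Mir217 exceeded Mir216b by 7.50-fold (1.74 to 67.6) in replicate 1 and by 13.0-fold (1.95 to 552) in replicate 2, intervals too wide to give the size of that difference.

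Mir122, the liver gene, was the member that differed most between the libraries among those detected. It lies in an exon of the noncoding gene AC157910.3. It had 89 counts in replicate 1 and 20 in replicate 2, or 24.8 CPM (20.0 to 30.6) and 5.59 CPM (3.42 to 8.64). The level in replicate 1 was 4.44-fold that in replicate 2 (2.71 to 7.62), and the intervals lay far apart. The SD of 13.6 CPM was nearly as large as the mean of 15.2 CPM (n = 2). The order of the detected members was the same in both libraries, and the distance of Mir122 from Mir217 differed: it was 5.93-fold above Mir217 in replicate 1 (3.41 to 11.0), and in replicate 2 the ratio of 1.54 had an interval that includes 1 (0.728 to 3.37). Mir192 was above Mir122 in both libraries, by 2.38-fold (1.85 to 3.09) and 8.40-fold (5.27 to 14.1).

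Set against all genes, the difference of Mir122 between the libraries was large, and those of the other 4 detected members lay within 1 SD of the median. Among the 360 genes with at least 10 sense counts on average, 15.0% differed by over 2-fold between the libraries, and 12.8% were over 2-fold lower in replicate 2. Of the 5 members in that range, 1 did, Mir122, with a log2 ratio of -2.10 (replicate 2 minus replicate 1, prior count 1), and 8 of the 360 genes had a lower value. Among the 111 genes between 10 and 100 CPM, the range that holds Mir122, 20.7% were over 2-fold lower in replicate 2. The median log2 ratio of the 360 genes was -0.29 and its SD 0.73. Relative to that median, Mir375 stood at 0.10, Mir217 at 0.10, Mir192 at -0.04, Mir194-2 at 0.32 and Mir122 at -1.80. The raw log2 ratios of Mir375 (-0.20) and Mir217 (-0.19) became positive with edgeR's TMM scaling, which moved the median of the 360 genes to -0.0049, so neither direction was settled. TMM scaling also changed the split of genes over 2-fold from 8 higher and 46 lower in replicate 2 to 12 higher and 27 lower. Mir122 was over 2-fold lower under every scaling tried.

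**Figure D2:**
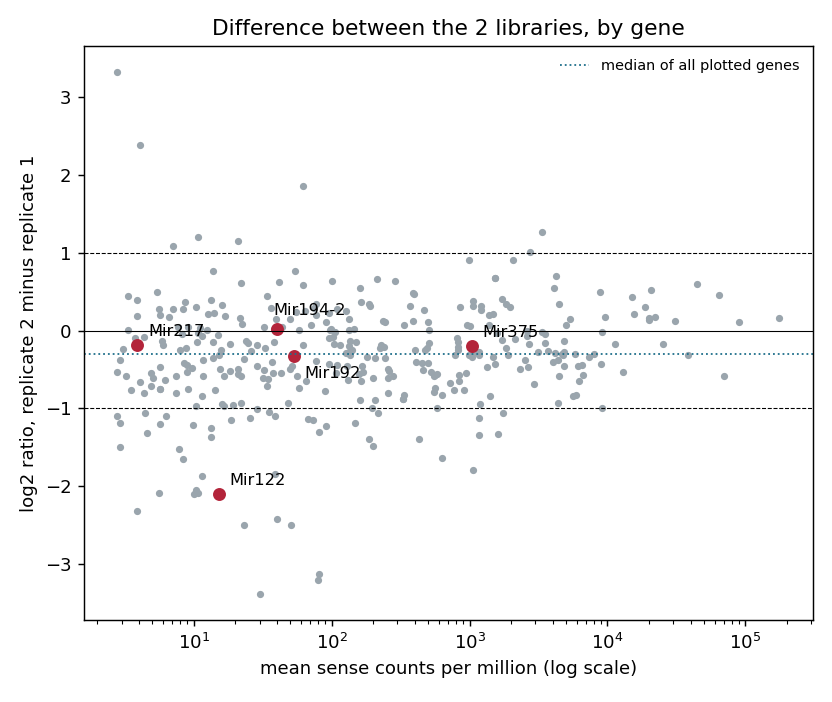
Log2 ratio of the libraries (replicate 2 minus replicate 1) against mean CPM (log axis) for the 360 genes with at least 10 sense counts on average. Red points are the 5 members in this range, dashed lines mark 2-fold, and the dotted line is the median of -0.29. Mir122 lies at -2.10, and the other 4 members lie between -0.33 and 0.02.

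Mir375 was compared with the liver, gut and pancreas genes within each library, a ratio that needs no scaling. It had 8.46-fold the counts of the other 8 members together in replicate 1 (7.69 to 9.33) and 9.84-fold in replicate 2 (8.81 to 11.0). Against the gut and kidney genes the ratio was 11.0 (9.85 to 12.3) and 10.9 (9.71 to 12.3), which agree within counting error. Against the acinar pancreas genes it was 220 (139 to 371) and 246 (146 to 450), also with overlapping intervals. Against Mir122 it was 44.4 (36.0 to 55.4) in replicate 1 and 172 (111 to 282) in replicate 2, where the intervals do not overlap. Reads of the mature RNA encoded at 2 of the gut and kidney loci may be missing from these counts. If so, the ratios to the gut and kidney genes and to the other 8 members are too high. The intervals do not cover this bias.

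Neither library held liver or acinar pancreas genes at a level near that of Mir375. The patterns given above for these genes are those of adult organs. Their levels in liver or pancreas at embryonic day 10.5 were not measured. Of the other genes known from pancreatic islets, Mir7-1 had 507 and 442 counts and Mir7-2 had 52 and 47, and Mir7b and Mir184 had 16 counts or fewer. Mir375 was 6.76-fold above that list's total in replicate 1 (6.19 to 7.38) and 6.89-fold in replicate 2 (6.27 to 7.58). The Mir7 genes are also neural, and reads shared by their loci may be missing from these counts. A list of other miRNA genes of digestive organs reached 604 and 528 CPM, of which Mir148a had 538 and 481 CPM and Mir31 had 58.9 and 41.7 CPM. Mir802, a liver and pancreas gene of that list, had no count in either library. Mir375 was 1.83-fold above this list in replicate 1 (1.73 to 1.93) and 1.82-fold in replicate 2 (1.72 to 1.93).

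The totals of the epithelial and sensory lists were above Mir375 and kept a near-constant ratio to it. Not every single gene was above it. Mir200a, Mir141, Mir200b and Mir96 had mean levels of 159, 208, 805 and 827 CPM, against 1033 CPM for Mir375. The other genes of both lists had higher means than Mir375. The epithelial list (the Mir200 family, Mir205, abundant in surface ectoderm, and Mir203) had all 7 genes detected, and its summed level was 12334 CPM in replicate 1 against 10775 in replicate 2. It was led by Mir205 with 18026 and 16404 counts and Mir429 with 10982 and 7903. Its total was 11.2-fold that of Mir375 in both libraries (10.8 to 11.6 in each). The sensory list (Mir183, Mir96 and Mir182, a cluster of sensory organs) totalled 6947 and 6014 CPM, led by Mir182 and Mir183. It was 6.30-fold above Mir375 in replicate 1 (6.09 to 6.51) and 6.25-fold in replicate 2 (6.02 to 6.48). The totals hid differences between single epithelial genes, whose log2 ratios ran from -0.85 for Mir200c to 0.67 for Mir203, so the constant ratio belongs to the sum. The constancy was not particular to these lists. The SD of the log2 ratio over the 2 libraries was 0.00098 for epithelium and 0.0083 for the sensory list. It was 0.0077 for gut and kidney, 0.020 for islet and 0.0032 for other digestive organs. All other lists had a larger SD, from 0.049 for the Hox list to 1.34 for Mir122. A pair of libraries does not give a relation across samples, and which cells carried Mir375 was not tested.

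Mir375 was below the totals of the mesenchyme and Hox lists. The mesenchyme list, led by Mir214 and Mir143, was 23.7-fold above it in replicate 1 (23.0 to 24.5) and 34.8-fold in replicate 2 (33.6 to 36.0). The Hox list, led by Mir10b and Mir196b, was 165-fold (160 to 170) and 173-fold (167 to 179) above it. The mesenchyme total itself was 26166 CPM in replicate 1 and 33484 CPM in replicate 2. Single genes were on both sides of Mir375, whose mean was 1033 CPM. Mir22, Mir199a-2, Mir145a, Mir199a-1 and Mir196a-1 had lower means (916, 368, 74.5, 20.8 and 39.5 CPM). The other genes of both lists had higher means. Reads shared by the loci of the Mir199 genes, or of Mir196a-1 and Mir196a-2, may be missing from these counts. If so, the counts of these genes and the folds of both lists over Mir375 are too low.

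**Figure D3:**
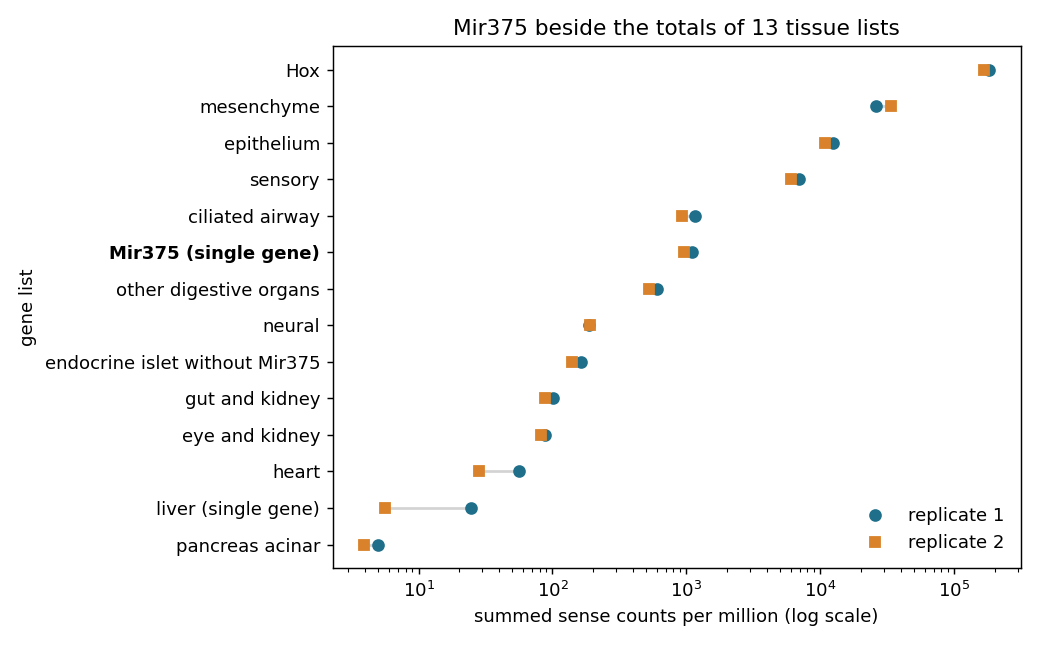
Summed sense counts in CPM (log axis) of Mir375 and of 13 tissue lists in replicate 1 (circles) and replicate 2 (squares). Mir375 lies below the epithelial and sensory lists and above the gut, liver and acinar pancreas genes, and the liver gene and the heart list show the widest gaps between the libraries.

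Lists of other organs outside the limb were examined beside Mir122. The heart list (Mir208a, Mir208b and Mir499, located in myosin genes) totalled 56.1 CPM in replicate 1 and 28.5 CPM in replicate 2, led by Mir208b with 138 and 68 counts and Mir208a with 41 and 24. All 3 of its genes were lower in replicate 2, 2 of them by over 2-fold in CPM and 0 relative to the median of all genes. The ciliated airway list was near Mir375 in level, with 1160 and 919 CPM, almost all from Mir34c (3913 and 3146 counts) and then Mir34b. Mir449a of that list had 92 and 47 counts, and Mir449b had none. Mir211 and Mir204, the eye and kidney list, had 88.2 and 82.8 CPM. The neural list had 186 CPM in replicate 1 and 189 CPM in replicate 2, led by Mir137 and Mir219a-1. That total hid Mir219a-2, which had 141 counts in replicate 1 and 24 in replicate 2, a log2 ratio of -2.50, lower than that of Mir122. It was the 1 gene of the 3 detected neural ones over 2-fold lower in replicate 2, also relative to the median of all genes. The 3 Mir124a genes of the neural list had no sense count, and Mir9-1 was not analysed here. Reads shared by the loci of the Mir124a genes, or by those of Mir219a-1 and Mir219a-2, may be missing from these counts. In CPM, Mir122 was 4.44-fold and the heart list 1.97-fold higher in replicate 1. The gut, acinar pancreas, islet and neural totals in replicate 1 were 1.14, 1.28, 1.17 and 0.985 times those in replicate 2. For the ciliated airway, other digestive, and eye and kidney totals the values were 1.26, 1.14 and 1.07. The median gene was itself lower in replicate 2, with a log2 ratio of -0.29 over 360 genes. Tissue of other organs in the pools was not measured by any other readout, and its part in the Mir122 counts was not tested.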

How the data were processed

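Small-RNA libraries from the 2 limb pools were deposited as 2 tables of raw read counts per miRNA gene. The deposited readme texts name the assembly mm10, the annotation GENCODE M4 and a separate alignment for each library. Which aligner, counter and trimming were used is not given in the sources used here. Each table holds counts without strand, sense counts and antisense counts, and a row of multimapping reads (32.3% and 31.2% of mapped reads), listed apart from the genes. They are read here as counted at no gene, which the sources used here do not state. Of all reads, 32.3% and 18.6% were unmapped and 9.43% and 5.60% lay outside miRNA genes on either strand.

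Identifiers were matched to GENCODE M21 (GRCm38) symbols, 1894 by ID and 79 not. CPM used all gene rows. Ratios within a library are ratios of counts with exact conditional binomial 95% intervals. Log2 values carry a prior count of 1. The genes named are the 9 members, the 2 most abundant genes of each comparison list and the 5 genes nearest to Mir375 and to Mir192. Single members of the lists that are given beside these were chosen after their values were seen. The members and lists were chosen with earlier results of these data known. Alternatives were TMM (edgeR 4.0.16), DESeq2 1.42.0 size factors, mapped reads, the mesenchyme total, counts without strand, other prior counts and limits, and leaving out a library. The intervals and scaling factors were tested on simulated independent (Poisson) counts, which hold no PCR copies. R 4.3.3, Python 3.11.15, numpy 2.4.6, pandas 2.3.3, scipy 1.17.1 and matplotlib 3.10.9 were used.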

Additional observations from a re-analysis of the deposited data

How the results depend on the processing

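Leaving out either library kept the number of detected members at 5, the summed level between 1061 and 1234 CPM and the share of Mir375 between 89.4% and 90.8%. The log2 ratio of Mir375 then ran from 3.08 to 3.29 over the other members, from 3.44 to 3.45 over the gut genes, from 5.46 to 7.36 over Mir122, from 7.70 to 7.84 over the acinar pancreas genes, stayed at -3.48 over epithelium, and ran from -2.65 to -2.64 over the sensory list and from -5.12 to -4.57 over mesenchyme. Scaled to all mapped reads, multimapping ones included, the summed level was 647 per 1000000 in place of 1147. A limit of 100 counts in both libraries left 3 members detected. Without Mir194-1 and Mir194-2, the share of Mir375 was 93.4% in place of 90.1%, and its log2 ratio was 3.84 in place of 3.19 over the other members and 4.26 in place of 3.45 over the gut genes. Leaving these genes out does not show how many reads of miR-194-5p may be missing. A prior count of 5 gave 3.43 over the gut genes, 7.47 in place of 7.77 over the acinar pancreas genes and -3.48 over epithelium. The last ratio was -3.48 without strand and -2.70 without Mir205.

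The median log2 ratio between the libraries over the 5 members was -0.20, and it was 0.0931 with TMM, 0.0797 with DESeq2 size factors, 0.0165 with mapped reads and -0.55 with the mesenchyme total, so its sign depends on the scaling. The log2 ratio of Mir122 ran from -2.45 to -1.81 over 5 alternatives. The number of members over 2-fold was 0 with at least 100 counts on average, where Mir122 is left out, and 2 with no filter, where Mir194-1 with 1 count joins it. No paired analysis was possible because the series has 1 group.

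With 15 and 13 counts for Mir217 and 5 or fewer for Mir215, Mir216a, Mir216b and Mir194-1, differences among these genes were not detectable at this depth unless they were several-fold.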
